A study of Mus musculus with 12 samples.

Results

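Integrin chains and numbered cadherins were followed in ribosome-bound mRNA of mouse melanomas. Members were taken by name, as every gene symbol of the count table formed of Itga, Itgb or Cdh and a chain number or letter, and 49 of 24421 symbols fitted: 18 integrin alpha chains, 8 integrin beta chains and 23 cadherins. Of these, 33 passed the filter on low counts (17 alpha chains, 6 beta chains and 10 cadherins) among 13534 genes that did. The other 16 held 14 to 130 counts over all libraries together and were not tested, and none of them exceeded 3.85 CPM (read counts scaled to the library total) in any library. They were Itgad, Itgb6, Itgb8, Cdh3, Cdh4, Cdh6, Cdh7, Cdh8, Cdh12, Cdh15, Cdh16, Cdh17, Cdh18, Cdh20, Cdh22 and Cdh26.

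The 2 groups were subcutaneous tumours of the highly metastatic line B16F10 (n = 7 libraries) and of the poorly metastatic line B16F0 (n = 5), both derived from the B16 melanoma of C57BL/6 mice. All hosts were C57BL/6 mice of genotype Rpl22fl/flHA;Cdh5(PAC)-CreERT2, all received tamoxifen and tumours grew for 12 days; the age of the mice is not given in the sources used here. In this RiboTag design, Cre driven by the promoter of Cdh5, itself one of the members, switches on an HA-tagged ribosomal protein in endothelial cells, so that pulling down the tag enriches what their ribosomes translate. The implanted tumour cells carry no tag. Whether each library is a mouse of its own is not stated in the labels; p-values therefore rest on the spread between libraries, which may be technical.

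Integrins are cell surface receptors made of 1 alpha and 1 beta chain, which bind matrix proteins such as fibronectin, collagen and laminin, or counter-receptors on other cells, and link them through talin and kindlin to actin. Cadherins bind the same cadherin on a neighbouring cell in the presence of calcium and are tied to actin by catenins. In vessels, Cdh5 (VE-cadherin) holds endothelial junctions together and integrins anchor the endothelium to its basement membrane; leukocytes carry their own set of chains, and melanocytic cells are known for others, such as Cdh19 of the neural crest lineage.

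Because the results turn on a few members that differed by tumour line or with endothelial content, the stretches of 250 bases before the transcription start were read for those present in the RefSeq promoter table (GRCm38.p6). That table held 31 of the 49 members. Itgb5 and Cdh10 are shown because they differed between the lines, and Itga2 and Itga5 because they rose with endothelial content. Each is written 5′ to 3′ on the gene's strand, with capitals marking matches to AGGAAG or CGGAAG on either strand, letters that the endothelial ETS factors are known to bind.
Itgb5, chr16:33829415-33829664, plus strand: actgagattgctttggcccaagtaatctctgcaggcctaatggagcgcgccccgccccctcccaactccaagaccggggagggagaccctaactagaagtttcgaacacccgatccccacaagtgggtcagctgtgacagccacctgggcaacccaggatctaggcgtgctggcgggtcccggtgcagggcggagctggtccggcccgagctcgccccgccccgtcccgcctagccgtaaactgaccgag
Cdh10, chr15:18820079-18820328, plus strand: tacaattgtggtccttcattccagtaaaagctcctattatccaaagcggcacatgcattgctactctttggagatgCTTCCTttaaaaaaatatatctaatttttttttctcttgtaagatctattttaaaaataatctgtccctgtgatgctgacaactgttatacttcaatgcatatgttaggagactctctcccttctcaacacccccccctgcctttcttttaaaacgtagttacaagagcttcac
Itga2, chr13:114932101-114932350, minus strand: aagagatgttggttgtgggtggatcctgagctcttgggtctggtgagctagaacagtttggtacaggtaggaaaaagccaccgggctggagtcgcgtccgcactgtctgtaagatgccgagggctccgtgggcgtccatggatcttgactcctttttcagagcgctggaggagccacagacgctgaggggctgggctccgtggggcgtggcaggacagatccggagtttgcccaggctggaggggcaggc
Itga5, chr15:103366792-103367041, minus strand: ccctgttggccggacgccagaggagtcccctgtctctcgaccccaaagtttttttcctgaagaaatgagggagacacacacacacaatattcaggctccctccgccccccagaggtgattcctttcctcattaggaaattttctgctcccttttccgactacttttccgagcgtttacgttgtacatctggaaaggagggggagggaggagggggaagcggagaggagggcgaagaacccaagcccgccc
Cdh10 held 1 match, from 174 to 169 bases before its start and read on the opposite strand, and the other stretches printed held none. The GENCODE M21 annotation starts Cdh10 at chr15:18818947, upstream of the stretch printed. The position of this match therefore holds for the RefSeq start only. Over windows of 300 bases (250 before and 50 after the start), 46.5% of 32851 mouse promoters in the table held at least 1 match. Itga3, which also rose with endothelial content but is not printed, held 2 matches at its upstream start. The letters TCATGTG or TCACGTG on either strand, the M-box type of E-box bound by the melanocyte factor Mitf, were in 7.4% of those promoters and in none of the windows of Itgb5, Cdh10, Itga2, Itga3 or Itga5. These are matches of letters and not measured binding.

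Libraries held 5322510 to 20569186 gene counts in B16F10 and 10753106 to 17381336 in B16F0, over sequencing lanes 1, 2 and 6, and each lane held both groups. Tumour cell transcripts were abundant in the precipitates: the genes of a melanocytic list summed to 11905 to 25247 CPM per library and 20 pan-endothelial genes to 746 to 5333 CPM. In 3 libraries (B16F10 replicates 4 and 5 and B16F0 replicate 3, called endothelial-rich here) the pan-endothelial genes summed to 2933 to 5333 CPM, and in the other 9 to 746 to 1331 CPM. No cell type list differed between the lines by an exact two-sided permutation test over 792 splits; the smallest p were 0.0227 for 2 T and NK cell genes and 0.0391 for the melanocytic list, which was 0.35 log2 units lower in B16F10, both at an adjusted p of 0.235 over 12 lists. In bulk samples, fewer cells of a type and less RNA per cell cannot be told apart.

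The make-up of the adhesion receptors was dominated by few chains. Per kilobase of annotated exon, Itgb1, the beta chain that pairs with the widest range of alpha chains, held 89.6% ± 2.9 (SD, n = 7) of the summed beta chain level in B16F10 and 91.9% ± 2.1 (SD, n = 5) in B16F0. Itgb3, the partner of alpha v and of the platelet alpha IIb chain, followed with 7.33% ± 2.56 and 6.38% ± 2.39 of that per-kilobase sum. Itgb5, another partner of alpha v that binds vitronectin, held 1.73% ± 0.81 in B16F10 and 0.384% ± 0.099 in B16F0. Among alpha chains, Itgav held 33.1% ± 9.0 in B16F10 and 44.2% ± 12.8 in B16F0, ahead of Itga9, Itga6, Itga4 and Itga5, each with 8.42% to 17.6% on the mean of a group. Itgav was the highest alpha chain in 10 of 12 libraries; Itga6 was higher in B16F10 replicate 4 (49.1 against 40.0 CPM per kilobase) and Itga9 in B16F10 replicate 5 (26.7 against 26.1), both endothelial-rich. Neighbours in that order of 4 lay within each other's spread over libraries. Among cadherins, Cdh19 (45.6% ± 23.2 in B16F10, 51.1% ± 23.2 in B16F0) and Cdh5 (42.2% ± 22.8 and 38.9% ± 23.0) had group means within each other's spread. Single libraries were less alike. Cdh19 held 19.4% to 83.2% in B16F10 and 18.2% to 77.0% in B16F0, and Cdh5 9.98% to 73.5% and 14.8% to 74.9%. Cdh2 (N-cadherin) came next with 5.46% ± 2.75 and 5.14% ± 2.41. The exon length joins all annotated isoforms of a gene, which lowers the per-kilobase level of genes with long alternative ends.

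**Figure D1:**
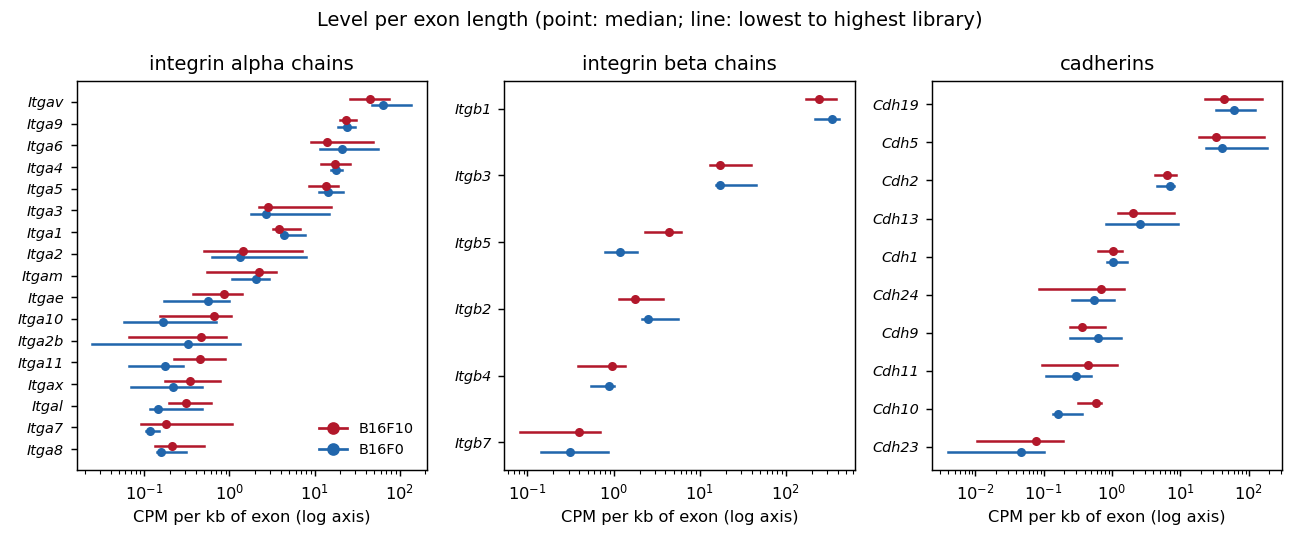
Level of the 33 tested members in CPM per kilobase of exon (log axis), for alpha chains, beta chains and cadherins; points are medians and lines run from the lowest to the highest library, in red for B16F10 (n = 7) and blue for B16F0 (n = 5). Itgb1 lies above all other beta chains, Itgav has the highest median of the alpha chains in both lines, and the lines of B16F10 and B16F0 are apart only for Itgb5 among the 6 beta chains.

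The first question was which members differ between the tumour lines. Itgb5 and Cdh10 were higher in B16F10, and no member was called lower (1 by DESeq2, 0 by limma-voom), by the quasi-likelihood test of edgeR, fitted with the lane and adjusted over all genes. These were 2 of 33 members (6.06%), where 1.3% of all tested genes were called higher and 1.47% lower. At an unadjusted p under 0.05, 5 members were higher and 2 lower (965 and 1043 of all genes), and the median log2 fold change was 0.10 over the members and 0.02 over all genes.

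Itgb5 (chr16:33829665-33949338, plus strand, GENCODE M21) was at 8.29 CPM in the lowest B16F10 library, 15.6 CPM in the median and 21.3 CPM in the highest. In the B16F0 libraries, replicates 1 to 5, it was at 6.56, 6.71, 4.26, 3.44 and 2.83 CPM. Every B16F10 library was above every B16F0 library, which held for 1.27% of tested genes. The fitted log2 fold change was 1.72 ± 0.28 (SE), a 3.3-fold difference, with an adjusted p of 0.0044 in edgeR. Within lanes 1, 2 and 6, the difference of mean log2 CPM was 1.01, 1.55 and 2.37. These lanes held 2, 2 and 3 libraries of B16F10 and 2, 1 and 2 of B16F0. For Itgb5 the sign within each lane was fixed, since the groups did not overlap. In lane 2 the lines also differed in library name prefix. With the endothelial score of each library added to the model, the log2 fold change was 1.73 (edgeR adjusted p = 0.0024). The authors' deposited table gave Itgb5 a log2 fold change of 1.70 and an FDR of 0.00173.

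Cdh10, a type II cadherin best known from the brain, was low in all libraries. It was at 3.21 CPM in the lowest, 5.92 CPM in the median and 7.0 CPM in the highest B16F10 library. B16F0 replicates 1 to 5 were at 3.68, 1.51, 1.62, 1.69 and 1.36 CPM. B16F0 replicate 1 overlapped the lowest B16F10 library, and the other 4 B16F0 libraries lay below all 7. The fitted log2 fold change was 1.42 ± 0.26 (SE), a 2.67-fold difference (edgeR adjusted p = 0.0092), and it was 1.3, 0.82 and 1.70 within lanes 1, 2 and 6. Without the 2 libraries richest in the ribosomal RNA gene Rn45s, it was 1.26 (edgeR adjusted p = 0.0539), no longer past the threshold. Summed olfactory, vomeronasal and taste receptor genes, a measure of background reads, were at 27.1 to 960 CPM in B16F10 and 10.6 to 134 CPM in B16F0. In B16F10 the library of lowest Cdh10, replicate 3, was also the lowest in background (27.1 CPM). In B16F0 the library of highest Cdh10, replicate 1, was the lowest in background (10.6 CPM). The part of background reads in the Cdh10 difference was not tested. The authors' deposited table gave Cdh10 an FDR of 0.0107.

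Itgav, the alpha v chain with which the Itgb5 and Itgb3 chains pair, did not pass the test. It ranged from 280 CPM over a median of 479 to 799 CPM in B16F10, and was at 1469, 1139, 680, 587 and 503 CPM in B16F0 replicates 1 to 5. The groups overlapped, with the 2 highest values in B16F0. The fitted log2 difference was -0.75 ± 0.25 (SE), with an edgeR adjusted p of 0.156, and -0.59, -1.60 and -0.44 within lanes 1, 2 and 6. DESeq2 gave it -0.75 with an adjusted p of 0.0498, so this call rested on the tool. With the melanocytic score of each library added to the model, the difference was -0.19 (edgeR adjusted p = 0.534), and without B16F0 replicate 1, the library of highest Itgav, it was -0.48 (edgeR adjusted p = 0.522). With the melanocytic score added, Itgb5 stayed at 2.10 and Cdh10 at 1.31 (edgeR adjusted p = 0.0016 and 0.0327). Gm13684 overlaps an exon of Itgav on the opposite strand, and without a stated strand setting its reads cannot be told apart from those of Itgav.

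**Figure D2:**
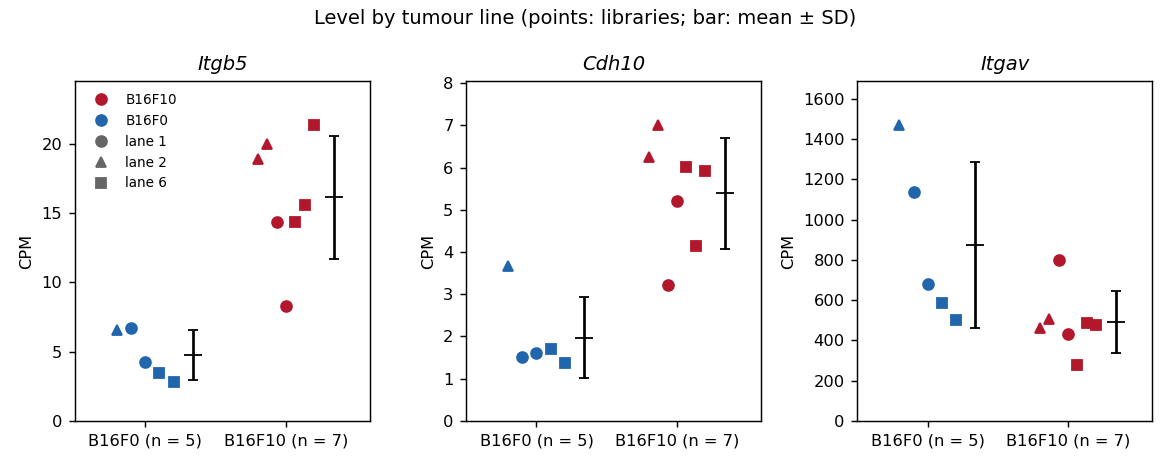
Level in CPM of Itgb5, Cdh10 and Itgav by tumour line, 1 point per library with its lane as the symbol, and mean ± SD as the bar (B16F0 n = 5, B16F10 n = 7). The lines are separate for Itgb5, overlap by B16F0 replicate 1 for Cdh10, and overlap for Itgav.

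Partner genes were compared by line as well. Of 27 listed integrin ligand genes 20 were tested, and 2 were called lower in B16F10 and none higher, where 1.47% and 1.3% of all tested genes were. Edil3 (Del-1), a ligand with an RGD motif for alpha v integrins, averaged 9.07 ± 1.94 CPM (SD, n = 7) in the B16F10 libraries, against 33.2 ± 11.8 CPM (SD, n = 5) in those of B16F0. The log2 difference was -1.89 ± 0.19 (SE) with an edgeR adjusted p of 0.0002, and the ranges were 6.87 to 11.4 CPM in B16F10 and 19.5 to 47.5 CPM in B16F0. Npnt (nephronectin), a ligand of integrin alpha 8 beta 1, averaged 25.1 ± 3.34 CPM in B16F10 (SD, n = 7) against 49.5 ± 8.17 CPM in B16F0 (SD, n = 5), and the log2 difference was -0.99 ± 0.14 (SE) with an edgeR adjusted p of 0.0019. No gene was called by line among 25 tested genes of the adhesion complex that couples integrins to actin or among 13 tested catenins and cadherin partners. The most abundant there were Tln1 (talin, 489 CPM), Ptk2 (focal adhesion kinase, 269 CPM), Ctnnb1 (beta-catenin, 1942 CPM) and Iqgap1 (527 CPM).

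The second question was which members move with the endothelial content of the precipitate. Each library was given an endothelial score, the mean log2 CPM of those 20 pan-endothelial genes, none an integrin or cadherin, and the slope is the log2 change of a gene per log2 unit of the score, with lane and line in the model. A positive slope was called for 7 of 33 members (21.2%), against 4.46% of all tested genes, and a negative slope for 1 member (3.03%), against 0.473%. The median slope was 0.21 over the members and -0.0017 over all genes. The score ran from 6.61 to 7.28 in the 3 endothelial-rich libraries and from 4.49 to 5.40 in the other 9, so the slopes compare in the main 3 libraries with 9. Without those 3 libraries no member and no gene was called: Cdh5 kept a slope of 1.49, Cdh13 of 1.86, Itga2 of 1.92, Itga3 of 0.64 and Itga6 of 0.72, while Itgb3 was at -0.25, Itga5 at -0.066 and Cdh2 at -0.029, all at an edgeR adjusted p of 1.00.

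**Figure D3:**
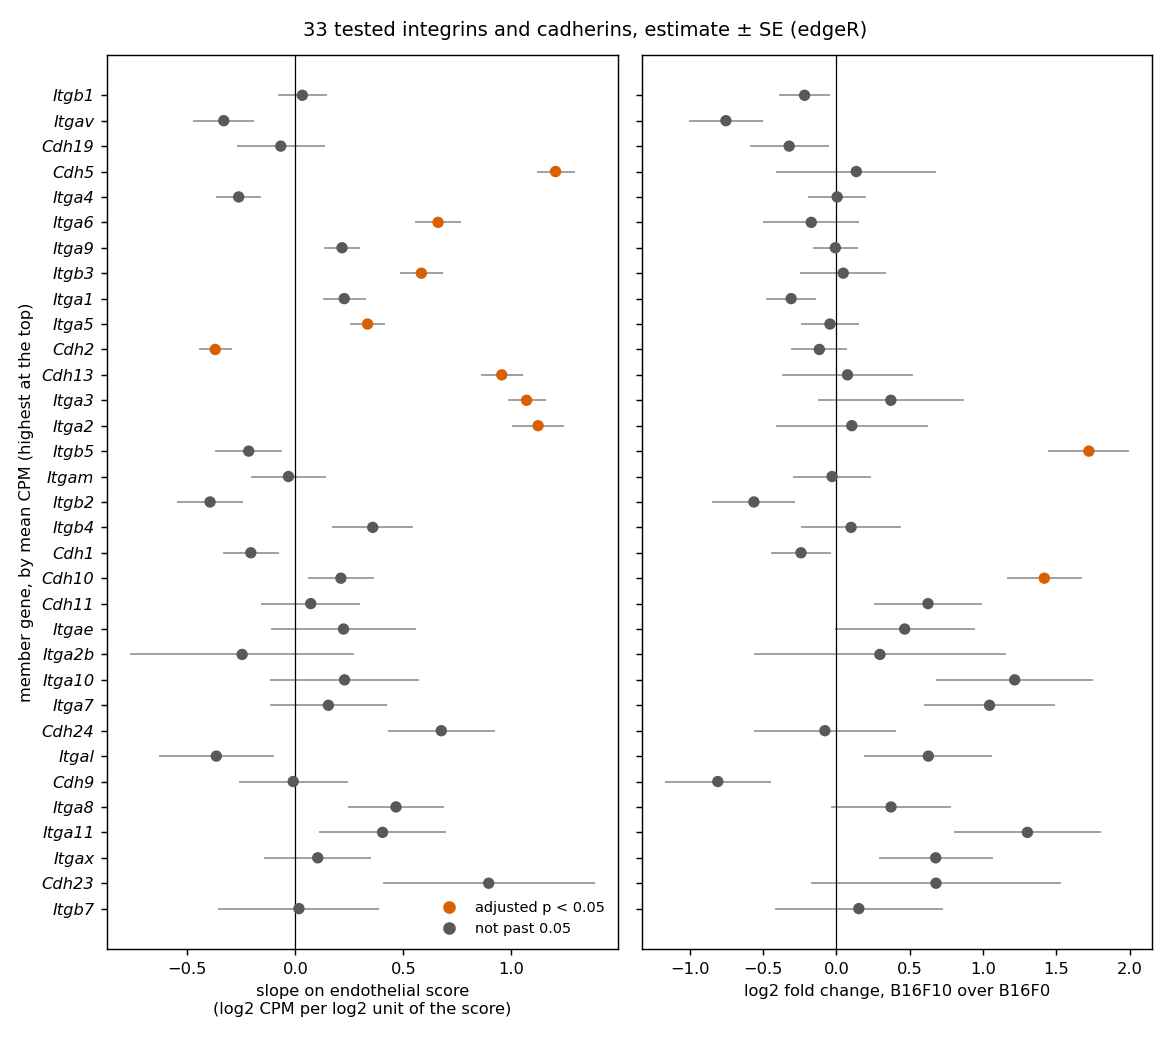
Slope on the endothelial score (left, log2 CPM per log2 unit of the score) and log2 fold change of B16F10 over B16F0 (right) for the 33 tested members, ordered by mean CPM; bars are standard errors and orange marks an adjusted p under 0.05. On the left 7 members are called to the right of 0 and Cdh2 to its left; on the right only Itgb5 and Cdh10 are called.

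Cdh5, the VE-cadherin of endothelial junctions (chr8:104101625-104144511, plus strand), had the steepest called slope. It was at 482, 711 and 764 CPM in the 3 endothelial-rich libraries and at 78.6 to 206 CPM in the other 9, a ratio of medians of 5.13. Its slope was 1.20 ± 0.088 (SE; edgeR adjusted p = 1.9e-05).

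Both cadherin and integrin members stood beside it. Cdh13 (T-cadherin), a cadherin anchored to the membrane by a lipid and known as a receptor for adiponectin in vessels, was at 50.04 to 103 CPM in the rich libraries and 9.12 to 31.7 CPM in the others, with a slope of 0.95 ± 0.096 (SE; edgeR adjusted p = 7.1e-05). Itga2, the collagen-binding alpha 2 chain (chr13:114833081-114932100, minus strand), was at 51.4, 19.9 and 56.5 CPM in B16F10 replicates 4 and 5 and B16F0 replicate 3, and at 3.56 to 14.2 CPM elsewhere. Its slope was 1.12 ± 0.12 (SE; edgeR adjusted p = 1.1e-04). Itga3, a laminin-binding chain (chr11:95044474-95076801, minus strand), was at 88.8, 46.9 and 84.9 CPM in those libraries and at 10.2 to 21.5 CPM in the others, a ratio of medians of 6.06 and a slope of 1.07 ± 0.088 (SE; edgeR adjusted p = 2.7e-05). The standard errors of the slopes of Cdh5, Itga2 and Itga3 overlap, so their order is not resolved.

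Shallower slopes were called for 3 integrin chains. Itga6, the laminin-binding alpha 6 chain long used as an endothelial surface marker, was at 229 to 496 CPM in the rich and 82.6 to 194 CPM in the other libraries, with a slope of 0.66 ± 0.10 (SE; edgeR adjusted p = 0.0020). Itgb3, the beta chain of the vitronectin receptor of growing vessels, was at 182 to 268 CPM and 77.0 to 107 CPM, with a slope of 0.58 ± 0.099 (SE; edgeR adjusted p = 0.0033). Itga5, the fibronectin-binding alpha 5 chain, was at 92.6 to 107 CPM and 42.5 to 75.7 CPM, with a slope of 0.33 ± 0.081 (SE; edgeR adjusted p = 0.0329). This last call was lost in 13 of 30 other settings, 8 of them the removal of a single library: B16F10 replicate 2, 4, 5, 6 or 7, or B16F0 replicate 2, 3 or 4, with adjusted p of 0.0523 to 0.119.

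Cdh2, the N-cadherin of mesenchymal and melanoma cells, was the one member called to fall. It was at 34.8, 34.2 and 36.5 CPM in B16F10 replicates 4 and 5 and B16F0 replicate 3, and at 49.2 to 69.2 CPM in the other 9. All 3 rich libraries were below the rest, as for 0.584% of tested genes, and the slope was -0.37 ± 0.077 (SE), with an edgeR adjusted p of 0.0127. It missed the threshold without B16F10 replicate 3 (-0.37, adjusted p = 0.0545) or without B16F0 replicate 3 (-0.39, adjusted p = 0.0656). The melanocytic genes summed to 11905 to 16559 CPM in the rich libraries and 14696 to 25247 CPM in the others; their part in the slope of Cdh2 was not tested.

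In all, 8 members were higher in each endothelial-rich library than in any other library: the 7 with a called slope and Itga9. For all tested genes this share was 4.71%. Itga9, a chain known from lymphatic vessels and valves, was at 205 to 234 CPM and 145 to 194 CPM, and its slope of 0.22 ± 0.083 (SE) did not pass the test (edgeR adjusted p = 0.185) except without B16F10 replicate 5 (0.32, adjusted p = 0.0331), without the 2 libraries richest in Rn45s (0.32, adjusted p = 0.0397) or with limma-voom (0.29, adjusted p = 0.0059). Within lane 1 (2 rich and 2 other libraries) and lane 6 (1 rich and 4 other libraries) the rich libraries were higher in log2 CPM by 2.36 and 2.04 for Cdh5, by 2.27 and 1.80 for Itga2, by 2.24 and 1.89 for Itga3, and by 1.75 and 1.69 for Cdh13. The differences were 1.38 and 0.92 for Itga6, 1.42 and 0.83 for Itgb3, 0.45 and 0.86 for Itga5, and -0.60 and -0.94 for Cdh2. For these 8 the direction within each lane was fixed beforehand, since their rich and other libraries did not overlap. The values therefore show sizes only and are no check of direction. Lane 2 held no rich library. In lane 1 the rich libraries were also those with another name prefix, so endothelial content cannot be told apart from the library prefix there. B16F10 replicate 5, the only rich library of lane 6, carried 31.4% of its counts in Rn45s. Within lane 6, endothelial content cannot be told apart from that or from other traits of this 1 library. Summed pericyte and smooth muscle genes were at 162 to 379 CPM in the rich and 90.8 to 420 CPM in the other libraries, and summed fibroblast genes at 857 to 1057 CPM and 158 to 2183 CPM.

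**Figure D4:**
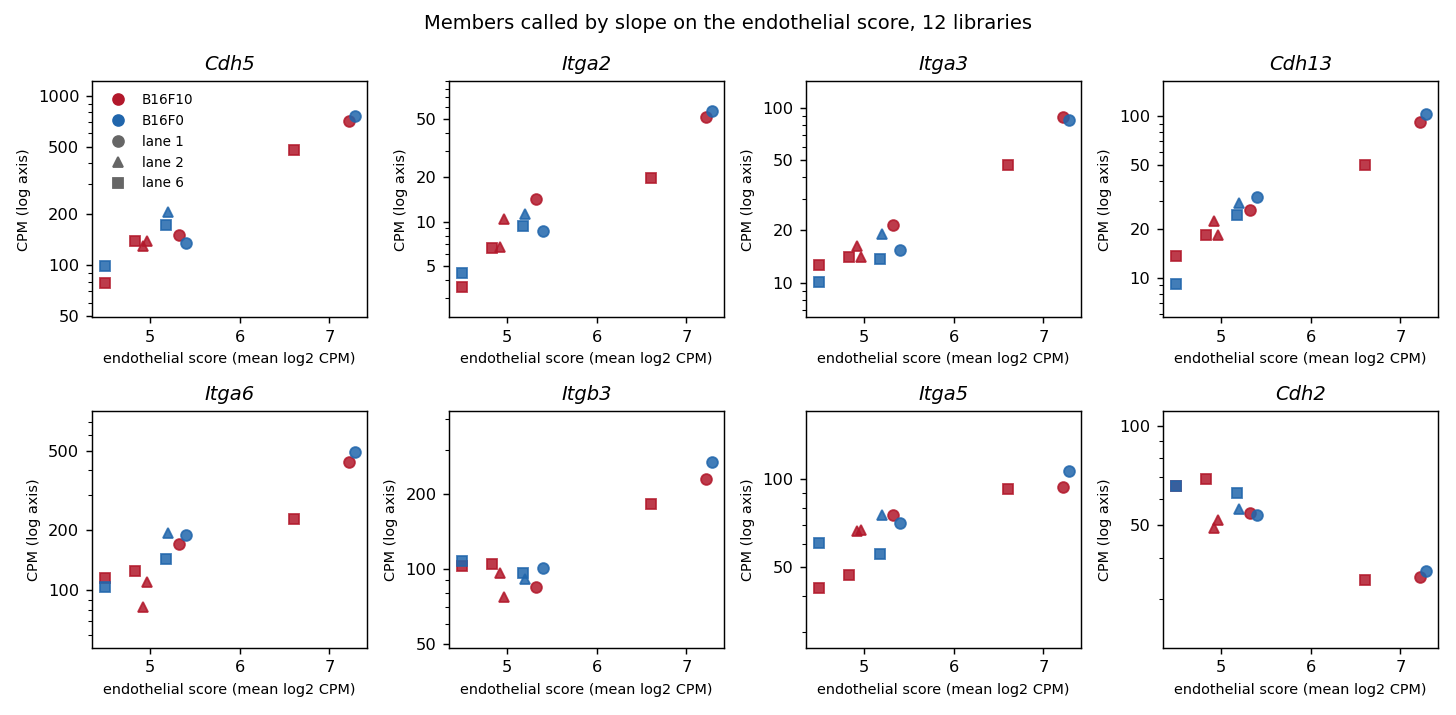
Level in CPM (log axis) against the endothelial score for the 8 members with a called slope, 1 point per library, coloured by line and with the lane as the symbol. The 3 libraries with a score above 6 are the highest for 7 genes and the lowest for Cdh2; 2 of them are of B16F10 and 1 of B16F0.

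Members were also sorted by the cells they are best known from. Of 6 chains listed as vessel members, 3 were called with a positive slope (Cdh5, Itga6 and Itga5), and of 8 members listed as shared between cell types, 4 (Itga2, Itga3, Itgb3 and Cdh13) with a positive and 1 (Cdh2) with a negative slope; over all tested genes 4.46% were positive and 0.473% negative. Itga1, a collagen-binding chain listed under vessels, was at 60.1 to 143 CPM with a slope of 0.23 ± 0.099 (SE; edgeR adjusted p = 0.233), which became 0.40 and called without B16F10 replicate 5 (edgeR adjusted p = 0.0178); it was also called without the 2 libraries richest in Rn45s (0.41) and with limma-voom (0.37). Itgb4, the partner of alpha 6 in laminin receptors, was at 2.71 to 9.50 CPM with a slope of 0.36 ± 0.19 (SE; edgeR adjusted p = 0.314). The slope of the abundant Itgb1 was 0.032 ± 0.11 (SE; edgeR adjusted p = 0.894) and that of Itgav -0.33 ± 0.14 (SE; edgeR adjusted p = 0.220), which was called at -0.38 without B16F0 replicate 1 (edgeR adjusted p = 0.0189), and also called without lane 2 (-0.36) and with limma-voom (-0.39). Itgb1 was at 690 to 1684 CPM in all, and at 1594 ± 63 CPM (SD, n = 4) in lane 1 against 977 ± 67 CPM (SD, n = 5) in lane 6, with no overlap between those lanes.

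Some partners of the receptors were called as well, to be read beside the 4.46% of all tested genes with a positive call. Among the adhesion complex, 3 of 25 tested genes had a positive slope: Lims2 (a PINCH adaptor, 1.05 ± 0.20 SE), Tns1 (tensin, 0.87 ± 0.16) and Pxn (paxillin, 0.43 ± 0.085). Among catenins and cadherin partners it was 1 of 13, Jup (plakoglobin), which links VE-cadherin to the cytoskeleton, with a slope of 0.70 ± 0.079 (SE; edgeR adjusted p = 0.0002). Among integrin ligands it was 7 of 20: the basement membrane genes Col4a1 (1.01), Col4a2 (1.08), Lamb1 (0.88) and Lamc1 (0.60), the leukocyte counter-receptors Icam1 (0.88) and Icam2 (0.80), and Mfge8 (0.60), a ligand of alpha v integrins. Icam2 is one of the genes of the score itself, so its slope supports nothing and 6 of the 7 are independent of the score. Col4a1 and Lamc1 were the most abundant tested ligands, at 1064 and 663 CPM.

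The third question, whether the endothelial slope differs between the lines, was asked by an interaction term. It was called for 0 of 33 members and 0 of 13534 genes in edgeR, and at an unadjusted p under 0.05 for 0 members and 183 genes; limma-voom also called 0 members. For Cdh5 the slope in B16F10 minus that in B16F0 was 0.03 ± 0.16 (SE), for Itga3 -0.08 ± 0.15 and for Itgb3 -0.12 ± 0.16. B16F0 holds a single rich library, so each B16F0 slope leans on 1 library, and a p above the threshold does not show that the slopes are alike.

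Members listed for leukocytes were low apart from Itga4, and which cells the Itga4 reads came from was not tested. Itgam, the alpha M chain of macrophages and neutrophils, was at 2.73, 11.1 and 17.5 CPM in the lowest, median and highest B16F10 library and at 13.4, 14.5, 10.2, 5.36 and 8.80 CPM in B16F0 replicates 1 to 5. Itgb2, the beta 2 chain shared by leukocyte integrins, was at 3.55, 5.47 and 11.4 CPM in B16F10 and at 10.8, 17.2, 7.67, 6.60 and 6.92 CPM in B16F0. Both overlapped between the lines. A leukocyte score, the mean log2 CPM of 20 leukocyte genes with no integrin among them, ran from 0.80 to 3.32. The slope on it was 0.85 ± 0.19 (SE) for Itgam and 0.56 ± 0.27 (SE) for Itgb2, both with an edgeR adjusted p of 0.639. No member was called on this score by edgeR or DESeq2, 1 with a positive and 2 with a negative slope were by limma-voom, and edgeR called 3 of 13534 genes (0.0222%); at an unadjusted p under 0.05 it was 1 member with a positive slope (Itgam) and 2 with a negative one, and 479 and 400 genes. Of the 8 members listed for leukocytes, 7 were tested and none was called by edgeR in any of the 4 gene-wise tests with all libraries. The endothelial slope of Itgb2 was -0.40 ± 0.15 (SE; edgeR adjusted p = 0.189), and it was called at -0.65 without B16F10 replicate 5 (adjusted p = 0.0227), at -0.73 without the 2 libraries richest in Rn45s (adjusted p = 0.0165) and at -0.64 with limma-voom (adjusted p = 0.0020).

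Itga4, the alpha 4 chain that binds Vcam1 on vessels and is listed for leukocytes, was at 168, 240 and 365 CPM in the lowest, median and highest B16F10 library and at 219, 290, 234, 268 and 250 CPM in B16F0 replicates 1 to 5. Its level per kilobase, 18.0 CPM, was above the 2.05 CPM of Itgam and the 2.58 CPM of Itgb2. Its slope was 0.16 ± 0.21 (SE) on the leukocyte score and -0.26 ± 0.11 (SE; edgeR adjusted p = 0.199) on the endothelial score, where limma-voom called it (-0.31, adjusted p = 0.0362). An exon of Cerkl overlaps Itga4 on the opposite strand, whose reads cannot be told apart.

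**Figure D5:**
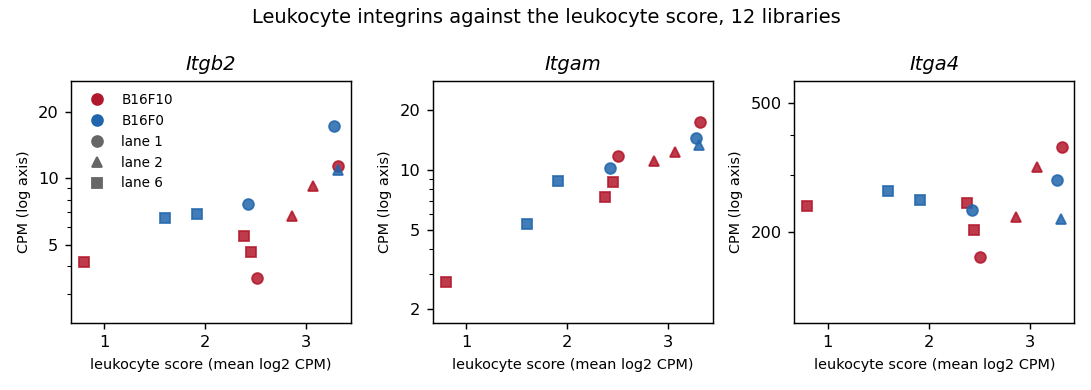
Level in CPM (log axis) of Itgb2, Itgam and Itga4 against the leukocyte score (mean log2 CPM of 20 genes), 1 point per library, coloured by line and with the lane as the symbol. Itgam and Itgb2 are lowest or near lowest in the library of lowest score, lane 6 holds the 3 lowest scores, and Itga4 shows no such course.

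Cdh19, the neural crest cadherin listed for the tumour cell, varied more by lane than by line. It was at 98.1, 188 and 668 CPM in the lowest, median and highest B16F10 library, and at 264, 140, 189, 508 and 523 CPM in B16F0 replicates 1 to 5. In lane 6 it was at 466 ± 176 CPM (SD, n = 5), in lane 2 at 201 ± 55 CPM (SD, n = 3) and in lane 1 at 155 ± 45 CPM (SD, n = 4). Between the lines the log2 difference was -0.32 ± 0.27 (SE), with an edgeR adjusted p of 0.643. With the library name prefix in place of the lane its endothelial slope was -0.73 (edgeR adjusted p = 0.0038), against -0.07 ± 0.20 (SE; edgeR adjusted p = 0.870) with the lane, so that call rests on the batch term.

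Some members listed for stroma were highest in 2 libraries; these low genes fall outside the rule for named members and were singled out after their values were seen. In B16F10 replicates 1 and 2, both of lane 2, Itga7, a laminin-binding chain of muscle, was at 7.21 to 8.60 CPM, against 0.74 to 2.55 CPM in the other 10 libraries, and Cdh11, the cadherin of fibroblasts, at 9.14 to 10.5 CPM against 0.83 to 4.48 CPM. Itga8 was at 3.3 to 3.69 CPM against 0.99 to 2.55 CPM, while the ranges of Itga10 (3.70 to 5.45 against 0.30 to 4.05 CPM) and Itga11 (2.30 to 4.49 against 0.33 to 3.36 CPM) overlapped, so 3 of the 5 tested stroma members stood apart. Beside these members, summed skeletal muscle genes were at 12.7 to 119.7 CPM in these 2 libraries and 1.01 to 10.3 CPM in the other 10, and pericyte and smooth muscle genes at 393 to 420 CPM and 90.8 to 379 CPM. Summed fibroblast genes were at 1796 to 2183 CPM in these 2 libraries and 158 to 1057 CPM in the others, and 1501 olfactory, vomeronasal and taste receptor genes, a measure of background reads, at 778 to 960 CPM and 10.6 to 340 CPM. These 2 libraries were also the only ones of their library name prefix, so the pattern cannot be told apart from that prefix. None of the 5 tested stroma members was called between the lines by edgeR, and the part of these values in the levels was not tested.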

How the data were processed

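Ribosome-bound mRNA was prepared with the ScriptSeq kit, per the labels' protocols. Read counts per gene symbol, as whole numbers, are what the authors deposited. Per the submitters' processing notes, the build was mm10 and the tools were R 3.3.2 with edgeR, STAR 2.2.1, cutadapt 1.16 and featureCounts 1.6.0. The annotation and the strand setting are not stated there, and overlapping genes may share reads. The authors' deposited table of log2 fold changes, with p-values and FDR, was read with its decimal comma as a point; it lists 38 members, and over the 33 shared ones its fold changes differ from those here by at most 0.18. The authors' normalized table was left unused, since its decimal marks were lost.

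Members, gene lists, scores and tests were chosen with earlier results of these data known. Genes passing filterByExpr (minimum count 10) were TMM-scaled and fitted in edgeR 4.0.16 (quasi-likelihood F test, R 4.3.3) over all 13534 genes, with lane and line as factors and Benjamini-Hochberg adjustment at 0.05. CPM uses TMM-scaled totals, and log2 CPM has a prior count of 2. The exception is the summed receptor genes taken as background, whose CPM uses the unscaled library total without Rn45s. Standard errors are the estimate divided by the square root of F. Library scores were compared by exact permutation. Members with a mean of at least 5 CPM or a call are named with values, and of each partner list the called genes and the 2 most abundant. Low stroma members were added after seeing the data. Coordinates and exon lengths are from GENCODE M21 on the same build. In a chi-square test of counts, every pair of libraries within a group differed by more than sampling noise. Tests were tried on simulated counts. Other settings were the batch term, scaling, filter, DESeq2 1.42.0, limma-voom (limma 3.58.1), covariates, score genes, a false discovery rate of 0.1 and libraries left out.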

Additional observations from a re-analysis of the deposited data

Results flagged for a closer look

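Within-group log2 levels of the named members were searched for a library far from the rest of its group, in 38 groups of 5 or 7 libraries; chance alone gives about 1 in 20, and 3 were found. Cdh10 in B16F0 replicate 1 was at 3.68 CPM, with the other 4 libraries at 1.36 to 1.69 CPM. Itgb3 in B16F0 replicate 3, the endothelial-rich library of that line, was at 268 CPM, with the others at 91.1 to 107 CPM. Itgb5 in B16F10 replicate 4, an endothelial-rich library, was at 8.29 CPM, with the others at 14.3 to 21.3 CPM.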

How the results depend on the processing

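Itgb5 was called higher in B16F10 in all 30 other settings tried for the line comparison (log2 1.54 to 2.12). The number of members called higher fell from 2 to 1 (Itgb5) with the replicate block (Cdh10 1.53, adjusted p = 0.185) and without the 2 libraries richest in Rn45s; 1 was called lower with DESeq2 (Itgav) and 1 with the melanocytic score added (Itga1, -0.61). Endothelial slopes: 4 positive and 0 negative with the replicate block, 0 and 0 without the 3 endothelial-rich libraries, where Itga5 (-0.066) and Itgb3 (-0.25) changed sign; the negative count was 0 with library size scaling, 4 with limma-voom, and 2 with the library name prefix, without lane 2 and without the 2 libraries richest in Rn45s. Leukocyte slopes: 3 positive and 1 negative with no lane term, 1 and 2 with limma-voom, and 3 negative with the replicate block. The interaction was called for 1 member higher and 3 lower with the replicate block. This block adds more model terms than the lane does, and in the interaction fit it leaves nearly as many terms as libraries. Calls gained or lost with the replicate block therefore rest on little. Leaving out each library in turn gave 2 to 2 members higher and 0 to 0 lower by line, 6 to 9 positive and 0 to 2 negative endothelial slopes, 0 to 0 positive and 0 to 1 negative leukocyte slopes, and 0 to 0 for the interaction; for the library scores, a setting added after seeing the data, it gave 0 to 1 lists, the 1 without B16F10 replicate 1, 2, 3 or 6. The causes were not tested. Replicate numbers did not pair the libraries: same-numbered libraries correlated at -0.35 to 0.53, and none correlated best with its own number. The lowest depth was that of B16F10 replicate 1, with 5322510 counts, where low members are least precise.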
